A study of Mus musculus with 12 samples.

Results

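Adam12, Sorl1, Xrcc6, Cabcoco1 and Ttc25 are genes outside the lipid synthesis pathway whose transcripts were higher in adipocytes of cold-housed mice. They are 5 of the 32285 genes listed in the count matrices. The members were selected on measured values: an earlier ranking of cold against room temperature in adipocytes of the same libraries named Adam12, Sorl1 and Xrcc6 in 3 depots, Cabcoco1 in mPRAT and Ttc25 in iBAT. The cold difference in adipocytes is therefore given as a description with no test, and the results that follow turn on what the ranking did not use: the other ages, the other depots, the other cell classes, splits of the nuclei within a library, neighbouring genes and genes of the same pathways.

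The study profiled nuclei from adipose depots of male C57BL/6J mice on normal chow, with 12 libraries and 1 library in each group, so no difference has a replicate check. At room temperature (22 °C) libraries were made at 1, 2 and 6 months of age from mPRAT and from iBAT, at 2 and 6 months from lPRAT, and only at 6 months from iWAT. After 3 days at 4 °C they were mPRAT, iBAT and iWAT at 6 months. The labels do not spell out the depot names. By common usage iBAT is the interscapular brown fat, iWAT the inguinal white fat, and mPRAT and lPRAT the medial and the lateral fat around the kidney. The titles call the oldest animals 6-month-old where the age field gives 16 weeks, and the 1- and 2-month animals are listed at 4 and 8 weeks. All intervals below are 95% intervals that cover counting error only, and the number of animals pooled in a library is not stated in the labels.

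Adipocytes were the nuclei whose unique molecular identifiers (UMIs, counts of captured transcripts) from 6 marker genes (Adipoq, Plin1, Plin4, Cidec, Pparg, Pde3b) exceeded those of any other class by at least 3 times. This gate held 71461 of 106898 kept nuclei, between 1982 and 18487 in a library, and 96.6% of them lay in adipocyte clusters of a joint clustering. Libraries held 5461133 to 87035783 UMIs. The cold mPRAT library stood apart, since 66.0% of its barcodes were over the 10% limit on mitochondrial UMIs and 3781 nuclei were kept. Its adipocyte-gated nuclei over that limit carried 182 CPM (counts scaled to a sum of 1000000 over the nuclei of a class in a library, here without mitochondrial UMIs) of the adipocyte lipase gene Lipe, against 1009 CPM in those under it. At most 0.734% of the barcodes of the smaller library were shared by any pair of libraries.

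Cold activates brown and beige adipocytes through sympathetic noradrenaline, which drives lipolysis, the uncoupling protein Ucp1 and, over days, the lipogenic enzymes that refill lipid droplets. The 5 genes belong to other systems. Adam12 encodes a membrane-anchored metalloprotease that sheds growth factors and their binding proteins from the cell surface. Sorl1 encodes SORLA, a sorting receptor of the VPS10 domain family that is known in adipocytes for returning the insulin receptor to the surface. Xrcc6 encodes Ku70, which with Ku80 binds broken DNA ends in non-homologous end joining. Cabcoco1 encodes a calcium-binding protein associated with cilia, and Ttc25 (also named Odad4) encodes a part of the complex that docks outer dynein arms to the axoneme of motile cilia.

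On GRCm38 (mm10), GENCODE M21 places Adam12 at chr7:133883199-134232146 on the minus strand, Sorl1 at chr9:41964720-42124297 on the minus strand, Xrcc6 at chr15:81987835-82040085 on the plus strand, Cabcoco1 at chr10:68430953-68541896 on the minus strand and Ttc25 at chr11:100545607-100572568 on the plus strand. Exons cover from 1.14% of the span of Cabcoco1 to 22.8% of that of Ttc25. The RefSeq promoter table (GRCm38.p6) holds Sorl1, Xrcc6 and Cabcoco1. The 250 bases before each start site are shown because these genes were higher together after cold, and the capitals mark matches to the motifs searched.
Sorl1 (chr9:42124298-42124547, minus strand): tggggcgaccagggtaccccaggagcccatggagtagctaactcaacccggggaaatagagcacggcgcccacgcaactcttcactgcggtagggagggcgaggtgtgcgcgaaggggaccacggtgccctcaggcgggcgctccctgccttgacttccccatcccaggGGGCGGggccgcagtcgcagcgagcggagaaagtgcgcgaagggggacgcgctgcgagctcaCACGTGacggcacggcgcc
Xrcc6 (chr15:82016119-82016368, plus strand): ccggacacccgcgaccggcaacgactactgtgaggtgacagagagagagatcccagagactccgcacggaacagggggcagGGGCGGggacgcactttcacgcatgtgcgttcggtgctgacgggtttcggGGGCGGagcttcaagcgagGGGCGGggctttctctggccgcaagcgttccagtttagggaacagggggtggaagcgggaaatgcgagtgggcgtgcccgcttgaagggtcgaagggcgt
Cabcoco1 (chr10:68541876-68542125, minus strand): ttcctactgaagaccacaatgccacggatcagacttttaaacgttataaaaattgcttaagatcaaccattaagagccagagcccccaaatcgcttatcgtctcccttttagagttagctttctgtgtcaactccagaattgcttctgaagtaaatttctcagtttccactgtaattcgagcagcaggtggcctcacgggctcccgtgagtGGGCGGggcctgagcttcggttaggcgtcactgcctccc

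All 3 windows hold the GC-box letters GGGCGG, read on both strands: once in Sorl1, 3 times in Xrcc6 and once in Cabcoco1. Of 32851 promoters of that length, 32.7% hold this motif. Sorl1 alone of the 3 holds the E-box CACGTG, 19 to 14 bases before its start, which 6.02% of all promoters hold. None of the 3 windows matched the cAMP response element TGACGTCA (in 1.55% of promoters), the estrogen-related receptor element TCAAGGTCA (0.387%), the nuclear receptor core AGGTCA (14.0%, which overlaps the former), the CCAAT box (33.8%) or the sterol element TCACNCCAC (1.05%). The GC content was 69.6% in Sorl1, 65.2% in Xrcc6 and 48.4% in Cabcoco1, against a median of 52.4%. The RefSeq start site of Xrcc6 lies 28.5 kb downstream of the first GENCODE start of that gene, so the 3′ counts cannot say which start was used.

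Adam12 was present in adipocytes of every depot. Its level in adipocyte-gated nuclei of mPRAT was 557, 933 and 847 CPM at 1, 2 and 6 months and 2507 CPM after cold. In iBAT the same series was 747, 1799, 692 and 3255 CPM. In iWAT it was 302 CPM at room temperature and 1025 CPM after cold, and in lPRAT it was 110.4 and 288 CPM at 2 and 6 months. The cold library was the highest of its depot each time, by 2.96-fold in mPRAT, 4.70-fold in iBAT (4.65 to 4.76) and 3.40-fold in iWAT. The iBAT library at 2 months, at room temperature, exceeded the cold iWAT library.

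Sorl1 was low in room-temperature adipocytes. In mPRAT it read 47.9, 56.8 and 62.0 CPM at 1, 2 and 6 months and 208 CPM after cold. In iBAT it read 16.0, 13.2 and 67.0 CPM, and 296 CPM after cold. In iWAT it went from 14.4 to 53.9 CPM, and in lPRAT it stayed at 13.6 and 15.2 CPM. The cold level was 3.36-fold that at room temperature in mPRAT, 4.42-fold in iBAT and 3.76-fold in iWAT (3.38 to 4.18). Macrophages of iWAT at room temperature held 19.9 CPM on 12 UMIs, more than the adipocytes. Stromal progenitor nuclei there, a class described further on, held 3.67 CPM on 10 UMIs. The size of the iWAT fold therefore depends on which class is taken as background. The cold iWAT level lay below that of 6-month mPRAT and iBAT at room temperature.

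Xrcc6 followed the depot as well as the temperature. The iBAT libraries held 757, 550.1 and 491 CPM at 1, 2 and 6 months and 1149 CPM after cold. The mPRAT libraries held 288, 181 and 178 CPM, and 593 CPM after cold. White-depot adipocytes were far lower, at 27.2 CPM in iWAT at room temperature, 105 CPM in iWAT after cold, and 17.1 and 12.1 CPM in lPRAT. At 6 months and room temperature iBAT was 2.76-fold above mPRAT, and mPRAT was 6.54-fold above iWAT, which was 2.26-fold above lPRAT (1.94 to 2.64). Macrophages held 16.6 CPM of Xrcc6 in that iWAT library and 10.9 CPM in that lPRAT library. The folds over and between the white depots depend on whether this level is taken off as background. These macrophages held 61.0% and 90.4% of the adipocyte level of Xrcc6. Their median for 5 adipocyte genes named further on was 7.35% and 2.57%. Whether macrophages transcribed Xrcc6 themselves was not tested. With the mitochondrial limit in place, the cold difference ran against the order of these levels: 3.87-fold in iWAT, 3.33-fold in mPRAT and 2.34-fold in iBAT. Without that limit the mPRAT ratio, with 1 CPM added to both levels, was 1.86-fold. This is below the iBAT ratio, which was at least 2.18-fold in the alternatives tried. The order of mPRAT and iBAT therefore depends on the limit.

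The ciliary genes Cabcoco1 and Ttc25 had the largest cold ratios of the 5 in mPRAT and iBAT. Cabcoco1 stood at 14.2, 14.6 and 6.65 CPM in mPRAT at 1, 2 and 6 months and at 128 CPM after cold, a 19.2-fold difference (16.5 to 22.5) that was the 10th highest of 15730 genes. In iBAT it stood at 34.2, 21.1 and 41.9 CPM, and at 307 CPM after cold, 7.31-fold. White adipocytes had almost none: 7 UMIs in all 2221 adipocyte nuclei of 6-month lPRAT, and 8 UMIs in iWAT at room temperature against 27 in the cold. That iWAT pair gives 7.32-fold with an interval from 3.23 to 18.6, on levels of 0.208 and 1.52 CPM. Macrophages of cold iWAT held 2.06 CPM, on 1 UMI, so the cold iWAT level is not above this background, and with the macrophage level subtracted the log2 ratio was -0.27.

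Ttc25 read 32.6, 11.7 and 22.7 CPM in mPRAT at 1, 2 and 6 months and 172 CPM after cold. In iBAT it read 32.1, 10.4 and 68.7 CPM, and 540.1 CPM after cold. In iWAT it went from 1.77 to 8.46 CPM, on 68 and 150 UMIs, and in lPRAT it read 5.98 and 1.37 CPM. The cold ratios were 7.56-fold in mPRAT, 7.86-fold in iBAT (7.59 to 8.14) and 4.78-fold in iWAT (3.57 to 6.47).

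**Figure D1:**
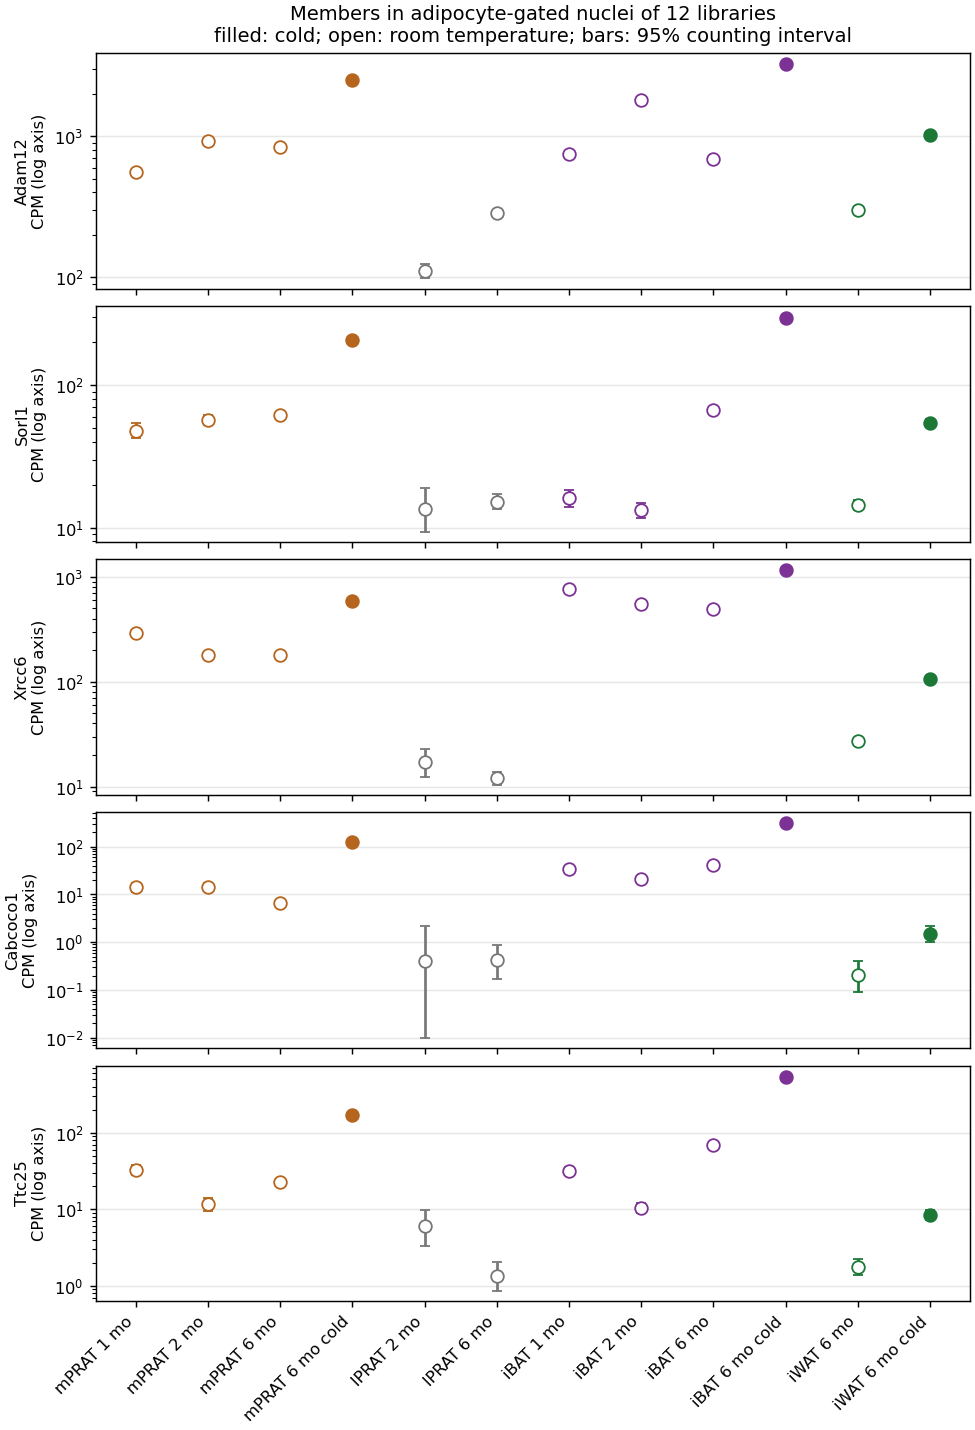
Each panel plots 1 member's level in adipocyte-gated nuclei (CPM, log axis) in the 12 libraries, with open points for room temperature, filled points for cold and bars for the 95% counting interval. The cold library is the highest of its depot in every panel, Xrcc6 and Cabcoco1 separate mPRAT and iBAT from lPRAT and iWAT, and Ttc25 dips at 2 months in mPRAT and iBAT.

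A gene was called when its log2 ratio of CPM + 1 passed 1 in size with at least 20 UMIs in both libraries together. All 5 members passed this upward in mPRAT, where 8.41% of 15730 genes did, in iBAT, where 5.15% of 17114 did, and in iWAT, where 2.34% of 15779 did. Since the ranking used this contrast, nothing is read from those counts. No member passed downward, where 7.51%, 8.24% and 6.01% of genes did. The log2 ratio of Cabcoco1 in iWAT was 1.06, just over the limit, and was below it with 10 CPM added in place of 1, as was Ttc25 in iWAT, at 0.65 against 1.77. Low levels also made the ratios depend on the background: with the macrophage level subtracted, and on the CPM + 1 scale, Sorl1 came to 13.4-fold and Ttc25 to 11.9-fold in iBAT, Xrcc6 to 7.55-fold in iWAT and Cabcoco1 to 33.4-fold in mPRAT, while Cabcoco1 in iWAT turned, from a log2 ratio of 1.06 to -0.27. In iWAT at room temperature macrophages held 19.9 CPM of Sorl1, more than the 14.4 CPM of the adipocytes. Nothing is left after subtraction, and no subtracted fold is given there. Those macrophages held 139% of the adipocyte level of Sorl1, but a median of 7.35% for 5 adipocyte genes named further on. Whether macrophages transcribed the subtracted genes themselves was not tested. The 3 cold ratios do not share control libraries, but each room-temperature library at 6 months is also used in the age comparisons below. In cold mPRAT the mitochondrial limit bore on all 5 members. Without the limit the log2 ratio of Sorl1 was higher, at 1.89 against 1.73, and the other ratios were lower. Without it the ratio of CPM + 1 came to 1.64-fold for Adam12 and 1.86-fold for Xrcc6, both under 2-fold, and to 3.99-fold for Ttc25, and the log2 ratio of Cabcoco1 was 3.35 against 4.07. Among the adipocyte-gated nuclei over that limit, Adam12 stood at 465 CPM of non-mitochondrial UMIs against 2552 CPM in those under it, and Sorl1 at 357 against 212 CPM. What part these nuclei had in the ratios was not tested.

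The members differed with age in different ways, and the ranking did not use age. Depth differed with age as well. Median UMIs per adipocyte nucleus at 2 and 6 months were 1774.5 and 6296 in mPRAT, 1538 and 2302 in iBAT, and 947 and 6303 in lPRAT. Age and depth cannot be told apart in these pairs. In mPRAT from 1 to 2 months, 1 of the 5 members passed 2-fold in either direction, against 6.46% of all genes. From 2 to 6 months it was again 1 of 5 (11.8% of genes), and from 1 to 6 months 0 of 5 (14.5%). The call from 2 to 6 months was Cabcoco1, at a log2 ratio of -1.03, and it was lost under 7 of 14 alternatives (its log2 ratio ran from -0.56 to -0.96 in them), while the 0 of 5 became 1 or 2 under others. In iBAT 2 of 5 passed from 1 to 2 months (3.19%), 3 of 5 from 2 to 6 months (7.33%) and 2 of 5 from 1 to 6 months (9.15%). The count from 1 to 6 months was 1 with 10 CPM added in place of 1, and 0 with the macrophage level subtracted. In lPRAT 2 of 4 members with enough UMIs passed from 2 to 6 months (20.6%). In the main setting the iBAT counts lie above the share of all genes and the mPRAT counts near it. The iBAT count from 1 to 6 months does not lie above it with the macrophage level subtracted. With 5 chosen genes no test was made of either depot.

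Ttc25 had the clearest age course, with its lowest level at 2 months in both mPRAT and iBAT. From 1 to 2 months it was 0.358-fold in mPRAT (0.280 to 0.457) and 0.324-fold in iBAT (0.272 to 0.385). From 2 to 6 months it was 1.94-fold in mPRAT and 6.61-fold in iBAT (5.73 to 7.67), while in lPRAT it was 0.229-fold on 15 and 23 UMIs. Macrophages of 2-month mPRAT held 10.7 CPM of Ttc25 on 1 UMI, against 11.7 CPM in the adipocytes. With the macrophage level subtracted the mPRAT ratio was past 2-fold. Macrophages of 6-month iBAT held 27.7 CPM on 4 UMIs, against 68.7 CPM in the adipocytes. Macrophages of 2-month lPRAT held 6.67 CPM of Ttc25 on 1 UMI, against 5.98 CPM in the adipocytes, and with the macrophage level subtracted the lPRAT ratio was log2 0, no longer past 2-fold. Adam12 in iBAT did the reverse, 2.41-fold from 1 to 2 months and 0.385-fold from 2 to 6 months. Sorl1 in iBAT was 5.06-fold higher at 6 than at 2 months (4.45 to 5.77), whereas in mPRAT it was 1.09-fold, with an interval that reached 1. Macrophages of 6-month iBAT held 48.5 CPM of Sorl1 on 7 UMIs, against 67.0 CPM in the adipocytes. The size of the iBAT fold therefore depends on whether that level is taken off. Xrcc6 was lower at 6 than at 1 month in both, 0.618-fold in mPRAT and 0.649-fold in iBAT.

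At 6 months the order of mPRAT and iBAT differed between temperatures for Adam12. At room temperature at 1 and 2 months, Adam12 in iBAT was 1.34-fold and 1.93-fold its mPRAT level, the same order as in cold. Cabcoco1 in cold mPRAT was 84.0-fold above cold iWAT (57.5 to 128), and Ttc25 was 20.3-fold above it. The cold iWAT level of Cabcoco1, 1.52 CPM, was not above the 2.06 CPM of macrophages there, on 1 UMI. The size of that fold is therefore not fixed by these counts. In cold, iBAT exceeded mPRAT for all 5 members, from 1.30-fold for Adam12 to 3.15-fold for Ttc25 (3.01 to 3.29). At 6 months and room temperature Sorl1 differed little between them, at 1.08-fold (1.02 to 1.14), and Adam12 was lower in iBAT, at 0.817-fold. In lPRAT and iWAT at room temperature the intervals of the ratio included 1 for Sorl1, Cabcoco1 and Ttc25. Sorl1 in iWAT was at 0.944 of its lPRAT level (0.812 to 1.10). In both depots Sorl1 stood below the macrophages, at 14.4 against 19.9 CPM in iWAT and 15.2 against 27.6 CPM in lPRAT. Stromal progenitor nuclei held 3.67 CPM in iWAT and 15.2 CPM in lPRAT, so the background differs by class and depot. The Sorl1 ratio between these depots is therefore not read as adipocyte expression.

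For the members' own pathways the counts are read against the 8.41%, 5.15% and 2.34% of all genes that passed upward in mPRAT, iBAT and iWAT: most genes did not pass, in these lists or outside them. Of the metalloprotease list (19 genes: ADAM and ADAMTS proteases, TIMP inhibitors and ADAM12 substrates), 0 passed upward in any depot. Downward, 3 of 17 measured passed in mPRAT, 1 of 19 in iBAT and 5 of 18 in iWAT, against 7.51%, 8.24% and 6.01% of all genes. Adamts5, an aggrecan-degrading protease, was among them in all 3 depots: 149 against 27.5 CPM in mPRAT, 14.3 against 2.42 CPM in iBAT and 903 against 244 CPM in iWAT, the first value at room temperature and the other in the cold. The sheddase Adam17 had log2 ratios of 0.09, 0.09 and 0.01.

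Of the sorting receptor list (17 genes: VPS10 receptors, sorting adaptors, and cargo or partner receptors), 0 of 16, 1 of 16 and 2 of 17 passed upward in mPRAT, iBAT and iWAT, and none downward. Lpl, the lipoprotein lipase known as a SORLA cargo, passed in iBAT (611 to 1770.1 CPM) and iWAT (568 to 2071 CPM). Sorcs2, a VPS10 receptor gene, passed in iWAT, from 1.48 to 4.17 CPM. Sort1, the sortilin gene of the VPS10 family, had log2 ratios of -0.59, -0.70 and 0.01.

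The partner of Ku70 did not pass 2-fold with it. Xrcc5, which encodes Ku80, went from 23.6 to 24.8 CPM in mPRAT, from 9.89 to 13.5 CPM in iBAT and from 23.7 to 18.7 CPM in iWAT. Of the 14 end-joining genes, 1 passed upward in mPRAT and iBAT and 0 in iWAT. That gene was Nhej1, the XLF factor that bridges the ligation complex, at 29.6 to 69.2 CPM in mPRAT and 29.6 to 92.3 CPM in iBAT. Prkdc, the DNA-PK catalytic subunit, passed downward in iBAT, from 169 to 72.6 CPM, as did the single-strand break scaffold Xrcc1, from 26.1 to 11.8 CPM.

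The cilia list (22 genes) had few genes past 2-fold. It holds genes of motile cilia, dynein arms and their regulators, and genes of cilia in general (Ift88, Ift172, Kif3a, Bbs4 and Arl13b). In mPRAT 1 of 15 measured passed upward: Efcab1, on 3 and 18 UMIs. In iBAT 1 of 18 passed downward, Dnaic2, and in iWAT 0 of 13 passed either way. Ccdc114, which encodes a docking complex partner of TTC25, stood at 16.5 and 15.4 CPM in mPRAT, at 28.7 and 20.3 CPM in iBAT and at 14.0 and 8.57 CPM in iWAT, in the same order. The motile cilia regulator Foxj1 had 0 to 2 UMIs in each of these libraries. For comparison, 10 of 14, 5 of 14 and 11 of 14 lipid synthesis genes, and 5, 5 and 6 of 8 thermogenic genes, passed upward in mPRAT, iBAT and iWAT.

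**Figure D2:**
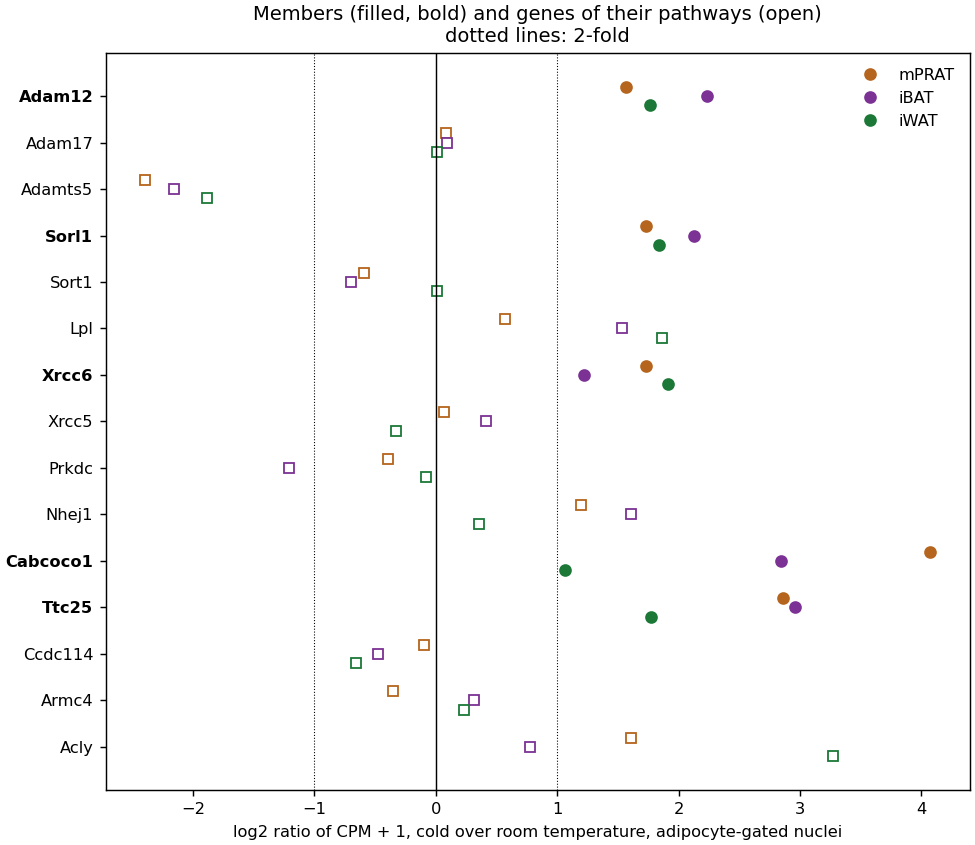
Log2 ratio of CPM + 1, cold over room temperature, in adipocyte-gated nuclei of mPRAT, iBAT and iWAT for the 5 members (filled) and for genes picked from their pathway lists and the neighbour Acly (open), with dotted lines at 2-fold. The members lie at or right of the upper line in all 3 depots, while Adam17, Sort1, Xrcc5, Ccdc114 and Armc4 lie between the lines.

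The members' neighbours on the chromosome were examined because Ttc25 lies next to a lipogenic gene. The start sites of Ttc25 and Acly, which encodes ATP citrate lyase, the source of cytosolic acetyl-CoA for fatty acid synthesis, are 17.6 kb apart on opposite strands, so they point away from each other. Acly had log2 cold ratios of 1.61 in mPRAT, 0.77 in iBAT and 3.27 in iWAT, against 2.86, 2.96 and 1.77 for Ttc25. Dnajc7 and Klhl11, on either side of the pair, stayed between -0.41 and 0.11 in every depot. Over the 20 neighbours of all 5 members, 2 of 9 measured passed upward in mPRAT (Acly and Pmm1, a phosphomannomutase gene near Xrcc6), 0 of 10 in iBAT and 1 of 11 in iWAT (Acly), where 8.41%, 5.15% and 2.34% of all genes did. The 20 leave out genes that overlap a member. Cnp, 2.34 kb past the far end of Ttc25, passed downward in iWAT on 66 and 5 UMIs. Desi1, which overlaps Xrcc6 on the opposite strand, went from 40.5 to 83.6 CPM in iBAT, a log2 ratio of 1.03 that passed 2-fold, and its reads and those of Xrcc6 cannot be told apart if strand was not used in counting. Transcripts that overlap Adam12 (A130023I24Rik), Sorl1 (Gm16214) and Cabcoco1 (Gm32872) had at most 63 UMIs in a library.

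Acly and Ttc25 also had the same order over age in adipocyte-gated nuclei. The ranking did not use age, but it did use the 6-month libraries at room temperature. Acly stood at 469, 159 and 332 CPM in mPRAT at 1, 2 and 6 months, at 681, 253 and 818 CPM in iBAT, and at 159 and 37.4 CPM in lPRAT at 2 and 6 months. Its level was lowest at 2 months in both mPRAT and iBAT, as for Ttc25. In lPRAT both were lower at 6 months, with the limit given above on Ttc25 there. Macrophages of mPRAT held 25.2, 10.7 and 3.80 CPM of Ttc25 at 1, 2 and 6 months, on 2, 1 and 2 UMIs. Stromal progenitor nuclei of mPRAT held 0, 0 and 2 UMIs of Ttc25 at these ages. Kidney tubule nuclei there held 7.98 and 1.33 CPM at 1 and 2 months, on 4 and 2 UMIs. The order of Ttc25 in mPRAT therefore depends on which class is taken off as background. By correlation over the 12 libraries, described further on, Acly was 258th of 7768 genes for Ttc25 (0.856).

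Individual nuclei were split by whether they held a UMI of Acly or of Ucp1, after adipocyte-gated nuclei with at least 1000 UMIs were thinned at random to that number so that all had equal depth. Shallower nuclei were left out, 83 in cold mPRAT, 57 in cold iBAT and 43 in cold iWAT, so the splits cover the deeper nuclei. In cold mPRAT Ttc25 stood at 366 CPM in 952 nuclei with Acly and at 59.6 CPM in 1258 nuclei without it, a ratio of 6.13 (4.77 to 7.98). The ratio was 2.70 (2.52 to 2.88) in cold iBAT, and 2.52 (0.853 to 6.81) in cold iWAT on 20 UMIs. At room temperature it was 5.18 (3.40 to 7.97) in 6-month mPRAT and 1.50 (1.33 to 1.68) in 6-month iBAT. In mPRAT the nuclei with Acly held 348 Ttc25 UMIs against 75 in those without after cold, and 57 against 40 at room temperature.

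Sorl1 was also higher in the nuclei with Acly. Its level in cold nuclei with Acly over those without was 1.78 (1.47 to 2.17) in mPRAT, 1.40 (1.30 to 1.51) in iBAT and 3.99 (2.84 to 5.58) in iWAT, where 68 UMIs fell in 494 nuclei with Acly and 80 in 2316 without. Adam12 was close to even, at 1.09, 0.913 and 0.896. In cold mPRAT Xrcc6 was at 1.38 (1.24 to 1.53) and Cabcoco1 at 1.30 (1.02 to 1.66), and in cold iBAT at 0.977 and 0.998. Lipe, used as a check gene, was at 1.05, 1.10 and 0.920 in the same split.

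The split by Ucp1, the thermogenic uncoupling protein, gave its highest ratios for other members. In cold iWAT only 82 of 2810 nuclei held a Ucp1 UMI, and Xrcc6 stood at 902 CPM in them against 113 CPM in the rest, a ratio of 7.99 (6.12 to 10.3). Adam12 stood at 3659 against 1073 CPM there, a ratio of 3.41 (3.02 to 3.84). Sorl1 was at 1.16 (0.372 to 2.78), on 5 and 143 UMIs, Acly at 0.455 (0.226 to 0.818) and Lipe at 0.747 (0.567 to 0.966). In cold mPRAT the ratios were 3.28 for Cabcoco1 (2.52 to 4.29), 2.33 for Ttc25, 2.12 for Xrcc6, 1.97 for Adam12 and 1.35 for Sorl1 (1.11 to 1.64). In cold iBAT, where 7923 of 10852 nuclei held Ucp1, all 5 lay between 0.907 and 1.08. In 6-month mPRAT at room temperature Cabcoco1 was at 7.01 (3.33 to 14.8), on 17 UMIs in 503 nuclei with Ucp1 and 16 in 3318 without. The same nuclei had 2.29 for Adam12 and 2.34 for Xrcc6.

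In cold iWAT, then, Xrcc6 and Adam12 were higher in the nuclei with Ucp1 and Sorl1 in the nuclei with Acly. These are ratios between nuclei of 1 library, which share free RNA and capture conditions, and the difference between splits was not tested.

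**Figure D3:**
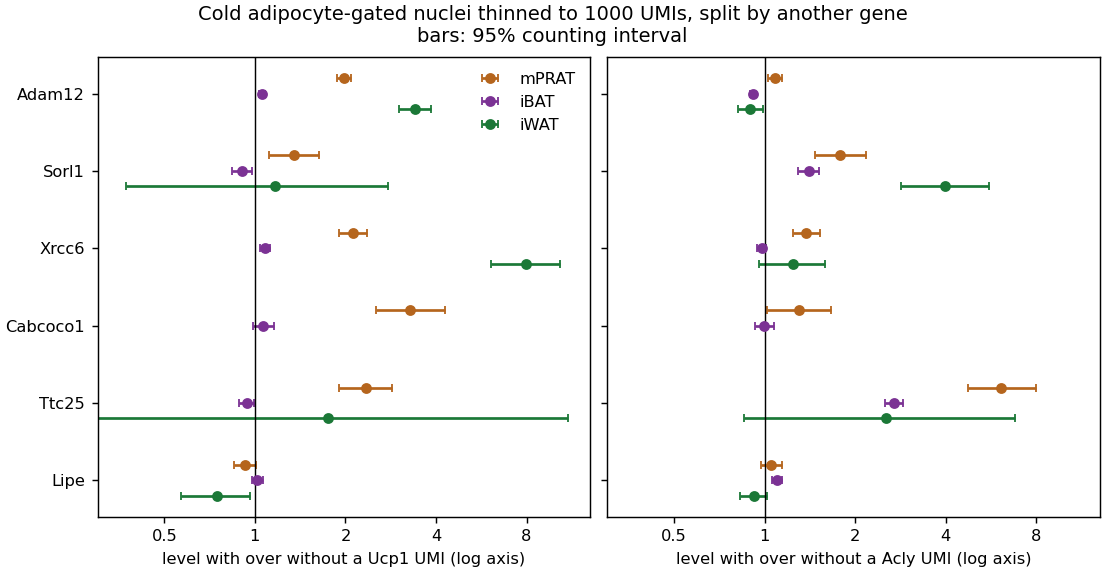
Ratio of each gene's level in cold adipocyte-gated nuclei with over without a UMI of Ucp1 (left) or Acly (right), on a log axis, with 95% counting intervals, for mPRAT, iBAT and iWAT. Xrcc6 and Adam12 lie furthest right for iWAT in the Ucp1 panel, Ttc25 for mPRAT and Sorl1 for iWAT in the Acly panel, and Lipe lies between 0.747 (iWAT, Ucp1 panel) and 1.10. Cabcoco1 had too few UMIs in iWAT, and the interval of Ttc25 in the left panel runs past the axis.

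The shares of thinned nuclei that held a transcript come from the contrast that chose the members, so they only describe it. Adam12 was found in 44.3% of mPRAT adipocyte nuclei at room temperature and 77.3% after cold, in 42.5% and 91.0% in iBAT, and in 22.8% and 57.3% in iWAT. Xrcc6 went from 17.1% to 40.5% in mPRAT, from 37.4% to 67.5% in iBAT and from 3.06% to 10.7% in iWAT. Sorl1 went from 5.26% to 16.4%, from 6.15% to 23.9% and from 1.55% to 4.77%. Ttc25 reached 32.7% of cold iBAT nuclei from 6.84%, and Cabcoco1 23.7% from 3.41%. Lipe, which was not chosen on this contrast, stood at 65.9% and 59.9% in mPRAT, 66.2% and 62.9% in iBAT, and 69.7% and 59.1% in iWAT.

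Macrophage-gated nuclei were used as the background class, with the adipocyte gene Lipe beside the members. Transcription by the macrophages themselves was not told apart from free RNA, so this background may be too high for some members. In cold iBAT 20.4% of 191 thinned macrophage-gated nuclei held Adam12, 16.8% Xrcc6 and 14.1% Lipe, and in cold mPRAT 10.0% of 140 held Adam12 and 2.86% Lipe. In 6-month iWAT at room temperature 2.53% of macrophage nuclei held Sorl1, above the 1.55% of adipocyte nuclei, so the Sorl1 share there is not read as expression, and Xrcc6 there stood at 2.53% of macrophage and 3.06% of adipocyte nuclei. In cold iWAT Ttc25 stood at 0.481% and 0.712%. Median depths before thinning in cold iBAT were 2101 UMIs for macrophage and 6749 UMIs for adipocyte nuclei. Thinning left out 1854 shallower adipocyte nuclei of iBAT at room temperature and 57 after cold. The thinned iWAT shares of Cabcoco1, 0.0656% and 0.178%, rest on 3 and 5 nuclei. Without thinning, at median depths of 2302 and 6749 UMIs per adipocyte nucleus in iBAT, the Adam12 shares were 62.9% and 99.4%, and those of Ttc25 15.5% and 70.02%.

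**Figure D4:**
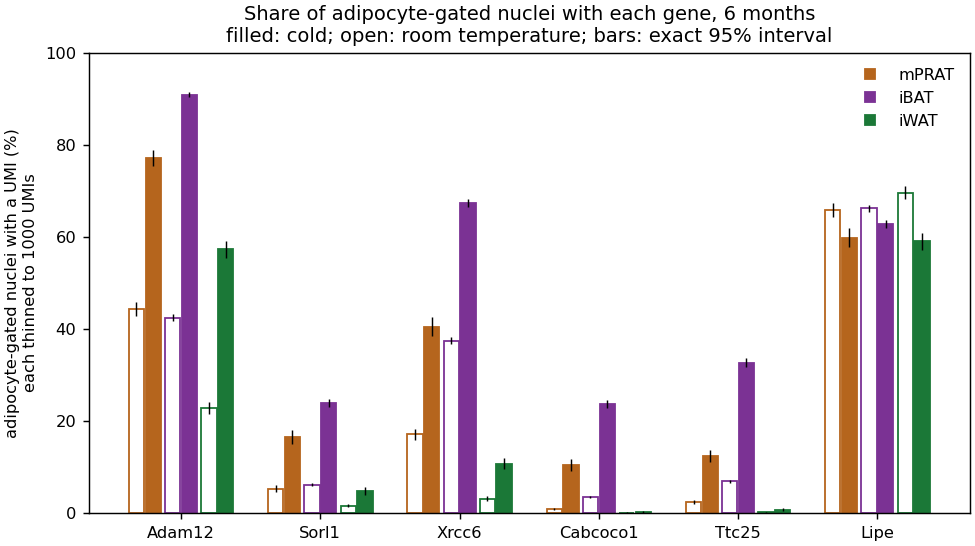
Percent of adipocyte-gated nuclei, each thinned to 1000 UMIs, that held a UMI of each member or of Lipe at 6 months, at room temperature (open) and after cold (filled) in mPRAT, iBAT and iWAT, with exact 95% intervals. Every member's filled bar is above its open bar, while the Lipe bars stay between 59.1% and 69.7%.

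Some pairs of members were found in the same nuclei more often than their separate shares gave, and not only after cold. In cold mPRAT 45 of 2210 thinned nuclei held both Cabcoco1 and Ttc25, 1.59 times the product of their shares (1.16 to 2.13), Xrcc6 and Cabcoco1 gave 1.48 times (1.24 to 1.74), Xrcc6 and Ttc25 gave 1.39 times (1.18 to 1.63), and Adam12 and Sorl1 gave 1.03 times (0.911 to 1.15). In cold iBAT the pairs lay between 0.988 and 1.18 times, with Sorl1 and Ttc25 at 1.18 (1.11 to 1.26). Adam12 was in 91.0% of those nuclei, which leaves its pairs little room above 1. In cold iWAT Adam12 and Xrcc6 gave 1.32 times (1.15 to 1.50), and Sorl1 and Xrcc6 1.60 times on 23 nuclei (1.02 to 2.40). In 6-month mPRAT at room temperature Xrcc6 and Cabcoco1 gave 2.56 times (1.40 to 4.29), on 14 nuclei. Adam12 and Xrcc6 gave 1.37 times there (1.23 to 1.51), against 1.17 after cold, and Adam12 and Sorl1 0.999 times. Adam12 and Xrcc6 gave 1.38 times in iWAT at room temperature (1.00 to 1.85). In 6-month iBAT at room temperature the pairs lay between 0.918 and 1.08 times.

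Outside adipocytes Adam12 was highest in stromal progenitors. In adipose stem and progenitor nuclei (ASPC) it stood at 1127 CPM in 6-month mPRAT at room temperature and 1108 CPM after cold, at 499.8 and 591 CPM in iBAT, and at 1203 and 1036 CPM in iWAT. The cold ratio there was 0.983 (0.896 to 1.08) in mPRAT, 1.18 (1.03 to 1.36) in iBAT and 0.862 (0.801 to 0.926) in iWAT, against 2.96, 4.70 and 3.40 in adipocytes. The iBAT value turned when the adipocyte RNA in those nuclei was taken off: less the median share of 5 adipocyte genes given further on, progenitors of iBAT held 432 CPM at room temperature and 294 CPM after cold, a ratio of 0.682, and the ratios in mPRAT and iWAT were 0.933 and 0.848. At room temperature iWAT progenitors held 399% of the adipocyte level, and after cold 101%. At 1 and 2 months progenitors held 1779 and 1518 CPM in mPRAT and 1382 and 1292 CPM in iBAT, above their 6-month levels. In lPRAT the order was the other way, with 216 CPM at 2 months and 443 CPM at 6 months. Mural nuclei of blood vessels held 744 CPM in 6-month mPRAT, and 294 and 299 CPM in iBAT at room temperature and after cold. The cold iBAT value was 9.19% of the adipocyte level, under the 10.2% that mural nuclei held of the 5 adipocyte reference genes, against 42.5% and 9.14% at room temperature. In endothelial nuclei the cold ratio of Adam12 was 4.88 in iBAT (3.29 to 7.53), 1.91 in mPRAT (1.19 to 3.02) and 1.68 in iWAT (0.990 to 2.93). In iBAT these nuclei held 12.5% and 13.01% of the adipocyte level of Adam12 at room temperature and after cold, beside 14.8% and 16.2% for the reference genes.

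Sorl1 was highest in lymphocytes. B cells of 6-month mPRAT at room temperature held 709 CPM in 3341 nuclei, and those of iWAT 780.2 CPM in 284 nuclei, against 62.0 and 14.4 CPM in the adipocytes. T or NK cells held 215 CPM in 6-month mPRAT and 522 CPM after cold, the latter on 34 UMIs in 64 nuclei. B cells did not reach 50 nuclei in any cold library. With all kept nuclei summed whatever their class, the log2 cold ratio of CPM + 1 for Sorl1 in mPRAT was 0.16 against 1.73 in adipocytes, and in iWAT 0.93 against 1.84.

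Cabcoco1 was high in epithelial nuclei that came with the young mPRAT samples. Kidney tubule nuclei held 134 CPM at 1 month and 119 CPM at 2 months, 942% and 814% of the adipocyte level. Mesothelial nuclei of 6-month lPRAT held 59.3 CPM on 12 UMIs, and progenitors there 12.1 CPM on 23 UMIs, against 0.416 CPM in lPRAT adipocytes. T or NK cells of iWAT at room temperature held 34.4 CPM on 22 UMIs. In the libraries with cold counterparts, no other class reached the 128 CPM of cold mPRAT or the 307 CPM of cold iBAT adipocytes.

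Xrcc6 and Ttc25 were higher in adipocytes than in the other named classes of the 6-month mPRAT and iBAT libraries. At 2 months in iBAT endothelial nuclei held 11.7 CPM of Ttc25 on 4 UMIs, against 10.4 CPM in adipocytes. In cold iBAT the other named classes held 106 to 168 CPM of Xrcc6, against 1149 CPM in adipocytes, and 40.0 to 73.4 CPM of Ttc25, against 540.1 CPM. As a measure of adipocyte RNA in other nuclei, cold iBAT progenitors held a median of 9.12% of the adipocyte level of 5 adipocyte genes that the gate did not use (Acvr1c, Lipe, Tshr, Dgat2 and Pcx), 9.24% of that of Xrcc6, 10.4% of that of Sorl1 and 8.28% of that of Ttc25. At room temperature the median was 9.84%, with Xrcc6 at 13.6%, Sorl1 at 8.13% and Ttc25 at 7.93%. The cold ratio of Ttc25 in iBAT progenitors, 8.21 on 4 and 32 UMIs, was close to that in adipocytes, 7.86, and the share of free adipocyte RNA in it was not tested. Adam12 in progenitors, at 18.2% of the adipocyte level in cold iBAT and 72.2% at room temperature, stood above those reference shares.

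**Figure D5:**
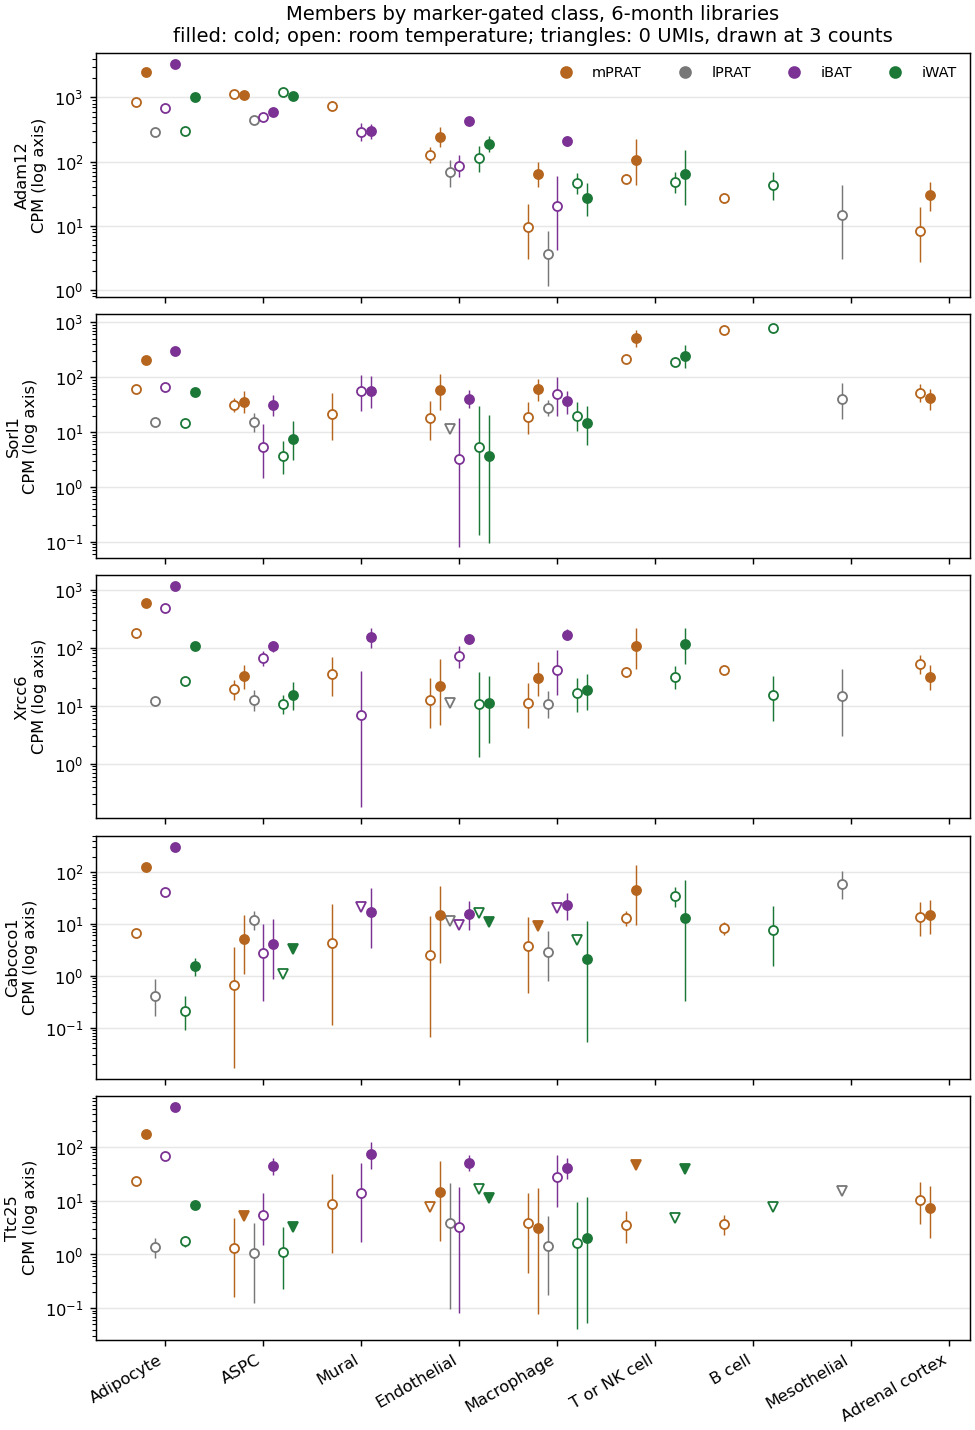
Level of each member (CPM, log axis) in marker-gated classes of the 6-month libraries, with open points for room temperature, filled points for cold, bars for the 95% counting interval and triangles for 0 UMIs drawn at the limit of 3 counts. Adam12 in ASPC has cold ratios from 0.862 to 1.18, Sorl1 is highest in B cells and T or NK cells, and Xrcc6, Cabcoco1 and Ttc25 are highest in adipocytes of cold iBAT.

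The genes whose levels over the 12 libraries were most like each member's were taken as the 3 highest Pearson correlations of log2(CPM + 10) in adipocyte-gated nuclei, among 7768 genes that reached 20 CPM in at least 2 libraries. The libraries differ in depot, age, temperature and depth at once, and the values are a description. For Adam12 they were Gars (0.964), Lrrc8d and Zbtb40. For Sorl1 they were Adk (0.953), the adenosine kinase gene, Riok2 and Btf3l4. For Xrcc6 they were Cox10 (0.985), which encodes a heme A synthesis enzyme, Ahcyl1 and Sirt3 (0.983), the mitochondrial deacetylase gene, and Ucp1 was the 27th (0.968). For Cabcoco1 they were Fhdc1 (0.991), Slco4a1 and Fuom. For Ttc25 they were Ankrd28 (0.979), Impa2, an inositol monophosphatase gene, and Slc25a35, and Cabcoco1 was the 8th (0.959). Cold ratios differed among these genes. Slco4a1, an organic anion transporter gene, had log2 cold ratios of 3.76 in mPRAT, 2.21 in iBAT and 0.98 in iWAT, and Impa2 had 2.13, 1.94 and 1.38. Fhdc1, Fuom, Slc25a35 and Zbtb40 passed 2-fold in mPRAT and iBAT, and Lrrc8d in iBAT. The remaining genes named here as most similar stayed under 2-fold in every depot. In mPRAT, iBAT and iWAT, Gars had 0.66, 0.72 and 0.33, and Adk 0.69, 0.92 and 0.41. Cox10 had 0.86, 0.98 and 0.62, and Ankrd28 0.55, 0.72 and 0.04.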

How the data were processed

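Single-nucleus 3′ RNA libraries of mouse fat depots gave deposited tables of UMI counts per gene and nucleus, made by the authors with Cell Ranger 7.0.0, per the file headers, on the mm10 build, per the submitters' processing notes. Kept nuclei had 500 or more UMIs, 300 or more genes and a mitochondrial share of no more than 10%, and were classed by the marker gate of the report. No doublet caller was run, and the gate margin leaves nuclei with mixed markers unassigned. Counts were summed per class and library as CPM. With 1 library per group no test was made, and exact Poisson, binomial and Clopper-Pearson 95% intervals cover counting error only. A 2-fold call is on log2(CPM + 1), with at least 20 UMIs. The named genes were the 5 members, the genes of the lists, the 2 nearest neighbours on each side of a member, and for each member the 3 genes of highest correlation; overlapping genes were added after their values were seen. A gene of the sorting receptor list is not reported here and was left out of its counts. Members and lists were chosen with earlier results of these data known. Only the ratio and its interval were tried on simulated data, with Poisson counts that carry no variation between nuclei or animals. The gate, clustering, thinning and subtraction were not simulated. Tools were Python 3.11.15, numpy 2.4.6, scipy 1.17.1, pandas 2.3.3, scikit-learn 1.9.0 and igraph 0.11.9, with edgeR 4.0.16 (R 4.3.3) for a scaling alternative and matplotlib 3.10.9.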

Additional observations from a re-analysis of the deposited data

Results flagged for a closer look

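Several members went in opposite directions under the same contrast in different depots, with both counting intervals clear of 1. Each rests on 1 library per group, and none of these differences was tested. Depth per nucleus also differed between 2 and 6 months, as given above. At 1 month the median per adipocyte nucleus was 1770 UMIs in mPRAT and 1354 UMIs in iBAT. From 1 to 2 months the ratio of Sorl1 was 0.828 in iBAT (0.686 to 0.9999) and 1.19 in mPRAT (1.02 to 1.38), both with an end close to 1. From 2 to 6 months Adam12 was at 0.385 of its level in iBAT and 2.60 in lPRAT, Cabcoco1 at 0.456 in mPRAT and 1.99 in iBAT, and Ttc25 at 0.229 in lPRAT and 6.61 in iBAT; the lPRAT value is no longer past 2-fold with the macrophage level subtracted. From 1 to 6 months Adam12 was at 0.927 in iBAT and 1.52 in mPRAT, Cabcoco1 at 0.469 in mPRAT and 1.22 in iBAT, and Ttc25 at 0.696 in mPRAT and 2.14 in iBAT. Macrophages held 112 and 20.8 CPM of Adam12 in iBAT at 1 and 6 months, on 7 and 3 UMIs. In mPRAT they held 25.2 and 3.80 CPM of Ttc25, on 2 UMIs each. With these levels subtracted, Adam12 in iBAT and Ttc25 in mPRAT were higher at 6 months, the same direction as in the other depot. Progenitor nuclei of mPRAT held 0 and 2 UMIs of Ttc25 at 1 and 6 months, so its turn depends on the class subtracted. In progenitor nuclei the cold ratio of Adam12 was 0.862 in iWAT and 1.18 in iBAT, and the iBAT value came to 0.682, the same direction as iWAT, with the adipocyte reference share subtracted.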

How the results depend on the processing

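The 15 cold ratios of the members were recomputed under 14 alternatives, and 209 of 210 values kept their direction, 202 their side of 2-fold. With the macrophage level subtracted, Cabcoco1 in iWAT had a log2 ratio of -0.27, and Ttc25 in lPRAT from 2 to 6 months 0. In an alternative chosen after seeing the data, the cold ratio of Adam12 in iBAT progenitors came to 0.682 against 1.18 once the adipocyte reference share was subtracted. The 11 age ratios past 2-fold kept direction in 153 of 154 values and side in 139, and the 24 not past it in 305 and 322 of 336. Counts of all genes past 2-fold upward after cold, 1323 in mPRAT, 882 in iBAT and 369 in iWAT, were 428, 325 and 160 with a pseudocount of 10 CPM, 1555 in iBAT and 586 in iWAT with 0.1 CPM, and 2702, 2111 and 2169 with the macrophage level subtracted. Members past 2-fold after cold numbered 3 in iWAT with 10 CPM or over all kept nuclei, and 3 in mPRAT with no mitochondrial limit. Member counts by age moved as follows: with 10 CPM, 0 for mPRAT from 1 to 2 and from 2 to 6 months, 1 for iBAT from 1 to 6 and 1 for lPRAT; 0 for mPRAT from 2 to 6 months with a mean over nuclei, a margin of 5, joint clustering, a 5% mitochondrial limit or the top 5% of nuclei left out; 1 for mPRAT from 1 to 6 months with 0.1 CPM, a margin of 2, joint clustering or no mitochondrial limit; 2 there over all kept nuclei or with macrophages subtracted. For mPRAT from 2 to 6 months it was 2 with no mitochondrial limit or macrophages subtracted. It was 0 for iBAT from 1 to 6 months with macrophages subtracted, and 1 for lPRAT with at least 1000 genes. The cause was not tested. TMM scaling moved the median of all genes from -0.10 to 0.03 in iBAT and from -0.19 to -0.07 in iWAT. Replicates could not be paired, because the labels give no replicate numbers to pair and each group has 1 library. A fit with the 3 depots as pairs was not run, since the members were chosen on that contrast.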
